A study of Mus musculus with 6 samples.

Results

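The genes of the mitochondrial respiratory chain and ATP synthase were followed in the developing mouse retina with and without loss of Zeb2. Members were taken by gene name: rows beginning with Nduf, Uqcr, Atp5 or Cox4 to Cox8, the 4 succinate dehydrogenase subunits Sdha to Sdhd, and the protein genes of the mitochondrial genome named mt-Nd, mt-Co, mt-Cytb or mt-Atp. Of 20175 rows in the table, 99 matched, and 96 had a mean of at least 10 normalised counts over the 6 libraries; these 96 members, of 16064 genes that passed the same limit, are 89 nuclear and 7 mitochondrial genes. Other protein genes of the mitochondrial genome, those of complex V and some of complexes I and IV, were not analysed here, so mitochondrial sums and shares cover these 7 genes. The retinas were taken on postnatal day 2. The Zeb2 mutant group held 3 samples with both Zeb2 copies flanked by loxP sites and the αCre driver, and the control group held 3 samples whose genotype is given only as control. The αCre driver is active in progenitors of the peripheral retina, so a mutant sample of whole retina also holds cells that kept Zeb2. No strain is given. The labels do not say whether replicates were separate animals, so each p-value reflects the spread among these 6 libraries alone, part of which may be technical.

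Reads on genes came to 26041200, 28250928 and 26774660 in the mutants, against 26064213, 26246179 and 32614805 in the controls, and libraries of a group differed by more than sampling noise (chi-square per degree of freedom 7.47 to 13.75). Zeb2 had 5581.4, 4273.6 and 5049.7 normalised counts in the mutants, against 5989.7, 6448.7 and 5916.7 in the controls, with no overlap (log2 fold change -0.31 ± 0.090 SE). Zeb2 was not called by limma (adjusted p = 0.129) or edgeR (adjusted p = 0.140) and was called lower by DESeq2 (adjusted p = 0.0158). Xist, expressed from the inactive X chromosome of females, had 10.6, 20450 and 5.1 normalised counts in the mutants, against 9.6, 21956 and 23565 in the controls, so the sexes were not balanced between the groups; mutants 1 and 3 and control 1 had the low values. Retinal markers were high in all libraries, summing to between 184390 and 197640 in the mutants and between 190850 and 191850 in the controls. Summed markers of mesenchyme were 7973, 3564 and 1728 in the mutants against 1563, 2030 and 1993 in the controls, and those of astrocytes 5928, 4517 and 741 against 461, 655 and 901, so mutants 1 and 2 stood apart in these sums. Most of the astrocyte sum in mutants 1 and 2 was Gfap, at 5130.2 and 3772.4, against 234.6 in mutant 3. S100b was likewise raised in mutants 1 and 2 only. For Pax2 and Aldh1l1 every mutant lay above every control, mutant 3 included. Rod markers summed to between 50243 and 64681 in the mutants and between 40288 and 51006 in the controls, with 3 of 12 genes called higher by limma. Markers of dividing progenitors summed to between 93511 and 118220 in the mutants and between 119910 and 131070 in the controls. Ccnd1 was the largest part of each progenitor sum, at 55952, 55832 and 40468 in the mutants, against 64903, 66822 and 59018 in the controls. Of the 9 progenitor markers, 8 had a log2 fold change below 0 and 0 were called by limma. Fgf15 went the other way, at 4810.0, 8577.1 and 4249.4 in the mutants, against 2842.1, 3349.7 and 2726.5 in the controls. The samples were bulk tissue, so a change in the number of cells of a type and a change in the RNA per cell cannot be told apart. The part of these cell mixtures in the results was not tested.

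The respiratory chain passes electrons from NADH and succinate to oxygen through complexes I to IV and uses the energy to pump protons across the inner mitochondrial membrane, and complex V, the ATP synthase, makes ATP from the proton gradient. Complex II is encoded wholly in the nucleus, whereas the other complexes join nuclear subunits with a small core made inside the mitochondrion. The mitochondrial protein genes lie on a circular genome that is copied into long transcripts from both strands and then cut at the transfer RNAs between the genes, while the nuclear genes each have their own promoter, many of them with sites for NRF1, GABPA or YY1. Photoreceptors are among the cells with the highest demand for oxygen, and rods are still being formed on the day sampled.

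Promoters are shown here because nuclear members are known for shared regulatory motifs. In RefSeq (GRCm38.p6), 75 of the 89 nuclear members matched a gene with 81 promoters, each read from 250 bases before to 50 bases after the gene start. The NRF1 motif CGCATGC, sought on both strands, was in 13 of these promoters (16.0%), against 3.58% of all 32851 promoters and 4.44% of those of protein-coding genes. The GABPA motif CCGGAAG was in 18 (22.2%), against 8.86% of all promoters and 11.6% of protein-coding ones, and the YY1 motif ATGGCGG was in 15 (18.5%), against 4.05% and 5.25%. The RBPJ motif TTCCCAC was in 5 (6.17%), against 6.38% and 6.07%, and the short hypoxia motif ACGTG in 21 (25.9%), against 19.6% and 20.9%. The NRF1 and hypoxia motifs each overlap their own reverse complement, and a promoter was counted once per motif. A match describes the letters of these windows and does not show binding. Before the start, NRF1 letters were found in 10 of the 75 matched members, so most members lack them there. The 250 bases before the start, 5′ to 3′ on the strand of the gene, are given for 2 members with NRF1 letters and for 2 members that lay among those nearest to a call, with matches to the NRF1 and GABPA motifs in capitals; the windows of Cox8a and Ndufv3 hold none of the motifs searched in these bases. The windows lie at chr5:115348959-115349208 (minus strand) for Cox6a1, chr4:140961021-140961270 (plus) for Sdhb, chr19:7217617-7217866 (minus) for Cox8a and chr17:31519865-31520114 (plus) for Ndufv3.
Cox6a1: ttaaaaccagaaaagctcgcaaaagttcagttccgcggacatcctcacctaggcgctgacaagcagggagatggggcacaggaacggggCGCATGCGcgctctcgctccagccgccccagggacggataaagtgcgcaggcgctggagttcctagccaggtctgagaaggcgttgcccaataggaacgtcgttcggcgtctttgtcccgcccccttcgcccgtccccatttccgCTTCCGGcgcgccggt
Sdhb: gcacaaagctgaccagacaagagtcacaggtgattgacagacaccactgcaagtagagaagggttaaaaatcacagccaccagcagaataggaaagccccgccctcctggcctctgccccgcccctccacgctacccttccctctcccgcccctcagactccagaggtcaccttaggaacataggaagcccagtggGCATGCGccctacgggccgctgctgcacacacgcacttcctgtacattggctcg
Cox8a: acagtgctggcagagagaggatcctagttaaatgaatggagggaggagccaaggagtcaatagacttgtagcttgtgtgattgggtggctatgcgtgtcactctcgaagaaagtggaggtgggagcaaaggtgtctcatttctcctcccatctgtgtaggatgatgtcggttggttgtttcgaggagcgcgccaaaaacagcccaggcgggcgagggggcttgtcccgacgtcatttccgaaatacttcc
Ndufv3: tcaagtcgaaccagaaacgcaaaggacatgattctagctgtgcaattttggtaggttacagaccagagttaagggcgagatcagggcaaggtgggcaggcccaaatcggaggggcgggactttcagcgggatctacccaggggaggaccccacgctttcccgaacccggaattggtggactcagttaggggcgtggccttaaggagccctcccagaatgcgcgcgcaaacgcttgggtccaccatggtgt

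The mitochondrially encoded genes moved together by library rather than by genotype. For each of the 7 genes, mutants 1 and 2 lay above all 3 controls and mutant 3 lay below all 3 controls. Relative to the control mean of each gene, the 7 genes stood at 105% to 125% in mutant 1, 114% to 134% in mutant 2 and 77.2% to 89.7% in mutant 3, against 91.0% to 98.2%, 99.4% to 104.6% and 100.3% to 107.6% in controls 1 to 3. None of the 7 was called by limma, edgeR or DESeq2, and none had an unadjusted limma p under 0.05.

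The catalytic subunit of complex IV, mt-Co1 (GRCm38 chromosome M, 5328 to 6872, plus strand), had 177613, 188370 and 118423 normalised counts in the mutants, against 142574, 152412 and 164933 in the controls. Its log2 fold change was 0.05 ± 0.17 (SE; limma adjusted p = 0.914), and mutant 3 held the lowest of the 6 values. The only mitochondrial subunit of complex III, mt-Cytb (14145 to 15288, plus strand), had 117252, 127079 and 83823 in the mutants, against 91157, 104459 and 103936 in the controls (0.11, limma adjusted p = 0.752). The same order of mutant libraries held for the complex I subunits, which form its proton-pumping membrane arm. The most abundant of them, mt-Nd1 (2751 to 3707, plus strand), had 107746, 117000 and 80278 in the mutants, against 100771, 104221 and 102979 in the controls. It was the 1 member of the 7 with a log2 fold change under 0 (-0.03, limma adjusted p = 0.928). The next gene along the genome, mt-Nd2 (3914 to 4951, plus strand), had 53152, 56705 and 37354 in the mutants, against 46125, 47594 and 49057 in the controls (0.02, limma adjusted p = 0.955).

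The other 3 complex I genes analysed, which lie further along the genome, had the same pattern with somewhat larger fold changes. mt-Nd4 (10167 to 11544, plus strand) had 35975, 39495 and 24933 normalised counts in the mutants, against 28784, 31973 and 31308 in the controls (0.10, limma adjusted p = 0.784). mt-Nd5 (11742 to 13565, plus strand) had 78084, 84214 and 55239 in the mutants, against 57861, 65466 and 67334 in the controls (0.17, limma adjusted p = 0.607). The protein gene of the other strand, mt-Nd6 (13552 to 14070, minus strand), had 27064, 29044 and 19372 in the mutants, against 19824, 22122 and 22855 in the controls (0.20 ± 0.14 SE, limma adjusted p = 0.502). mt-Nd5 and mt-Nd6 overlap at their ends, and no source used here gives the strand used in counting, so reads from the overlap and from the opposite strand cannot be told apart. Of the 50-base windows of mt-Nd4 and mt-Co1, 62.2% and 51.1% also occur in transcripts of other genes, so their counts depend on how reads with several matches were treated.

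**Figure D1:**
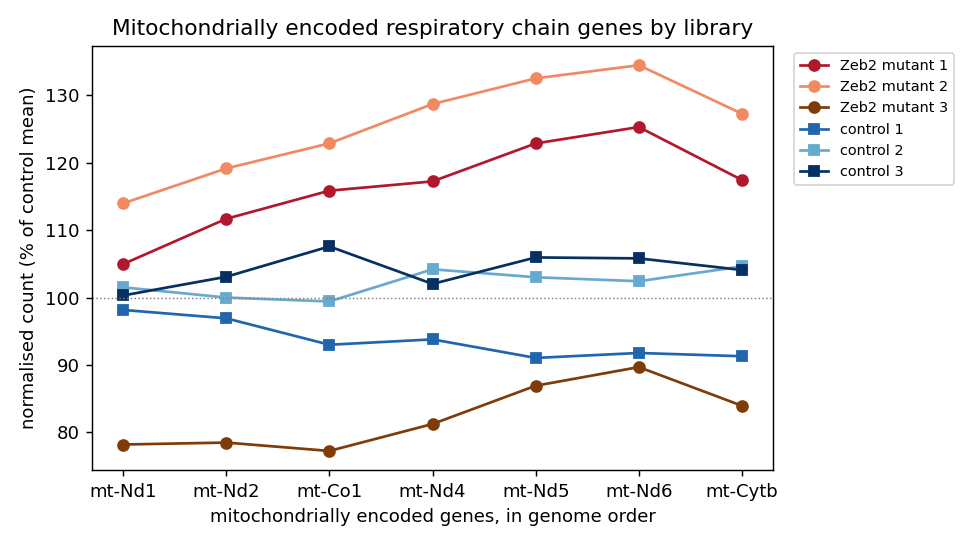
Normalised counts of the 7 mitochondrially encoded members (x axis, in genome order) in each library, as a percent of the mean of the 3 controls (y axis). Joined points are libraries, round for Zeb2 mutants and square for controls. Mutants 1 and 2 lie above and mutant 3 below all 3 controls for every gene.

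The ribosomal RNAs of the same genome overlapped between the groups. mt-Rnr1 had 11754, 14304 and 9900 normalised counts in the mutants, against 11727, 12295 and 10242 in the controls (log2 fold change 0.06, limma adjusted p = 0.858). mt-Rnr2 had 27927, 31344 and 24683 in the mutants, against 27448, 27310 and 27118 in the controls (0.03, limma adjusted p = 0.894). Mutant 2 was highest and mutant 3 lowest for both, as for the protein genes. The nuclear RNA Malat1, read as a sign of how nuclear RNA is represented, had 3371.9, 5260.4 and 6886 in the mutants, against 4499, 4632.7 and 4521.3 in the controls (limma adjusted p = 0.809). Mutant 3 had the highest Malat1 and the lowest mitochondrial values. Mutant 1 had the lowest Malat1, with the mitochondrial protein genes above all controls, and mutant 2 lay above all controls for both. Of the other nuclear RNAs read beside it, Neat1 had 44.4, 60 and 40.6 in the mutants, against 41.5, 43.0 and 48.2 in the controls. Kcnq1ot1 had 124.7, 165.4 and 224.5 in the mutants, against 171.4, 184.6 and 162.5 in the controls, and Meg3 had 4774, 11183 and 9964 in the mutants, against 4365, 4688 and 5508 in the controls. Malat1 and Kcnq1ot1 shared their order of mutants, with mutant 1 lowest and mutant 3 highest of all libraries. Neat1 and Meg3 had mutant 2 highest, and none of these RNAs was called by limma. Mutants 1 and 2 carried the raised sums of mesenchymal and astrocyte markers, the latter mostly Gfap. The part of RNA quality or of these cells in the mitochondrial values was not tested.

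The spread of the mitochondrial genes was large beside that of the nuclear members. The median standard deviation within groups was 0.24 on the log2 scale for the 7 mitochondrial genes, 0.066 for the 89 nuclear members and 0.11 for all genes tested. It came mostly from the mutants: the median over the 7 mitochondrial genes was 0.32 in mutant libraries and 0.11 in control libraries, against 0.075 and 0.046 for the nuclear members in mutant and control libraries. The median log2 difference of the 7 genes to the control mean was 0.23, 0.35 and -0.30 in mutants 1 to 3, against -0.10, 0.037 and 0.061 in controls 1 to 3.

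Within the mitochondrial genome some genes kept proportions that differed between the groups, a pattern picked out after the values were seen. Ratios of 2 genes of the same library cancel a shift common to the genome. mt-Nd5 stood at 0.725, 0.720 and 0.688 of mt-Nd1 in the mutants, against 0.574, 0.628 and 0.654 in the controls, means of 0.711 ± 0.0199 and 0.619 ± 0.0407 (SD, n = 3 each). mt-Nd6 stood at 0.251, 0.248 and 0.241 of mt-Nd1 in the mutants, against 0.197, 0.212 and 0.222 in the controls. In both ratios every mutant lay above every control, mutant 3 included.

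The ratio of mt-Cytb to mt-Nd1 was 1.09, 1.09 and 1.04 in the mutants, against 0.905, 1.00 and 1.01 in the controls. That of mt-Nd4 to mt-Nd1 was 0.334, 0.338 and 0.311 in the mutants, against 0.286, 0.307 and 0.304 in the controls. The ratios of mt-Nd2 and of mt-Co1 to mt-Nd1 overlapped between the groups, so the 4 genes that did not overlap were the 4 that lie furthest from mt-Nd1 along the plus strand. In the other direction, mt-Cytb stood at 4.33, 4.38 and 4.33 times mt-Nd6 in the mutants, against 4.60, 4.72 and 4.55 times in the controls. Of the 21 pairs of mitochondrial genes, 13 (61.9%) did not overlap between the groups, 11 of them with the mutants above when the gene further along the genome is divided by the nearer, against 454 of 3916 pairs of nuclear members (11.6%). Every pair with mt-Nd6 was without overlap. Among pairs holding neither mt-Nd5 nor mt-Nd6, only mt-Nd4 to mt-Nd1, mt-Cytb to mt-Nd1 and mt-Cytb to mt-Nd2 were without overlap. Reads of mt-Nd5 and mt-Nd6 from their shared bases and from the opposite strand cannot be told apart, which limits most of these pairs. The pairs share genes and libraries, so these counts are descriptions without a test.

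**Figure D2:**
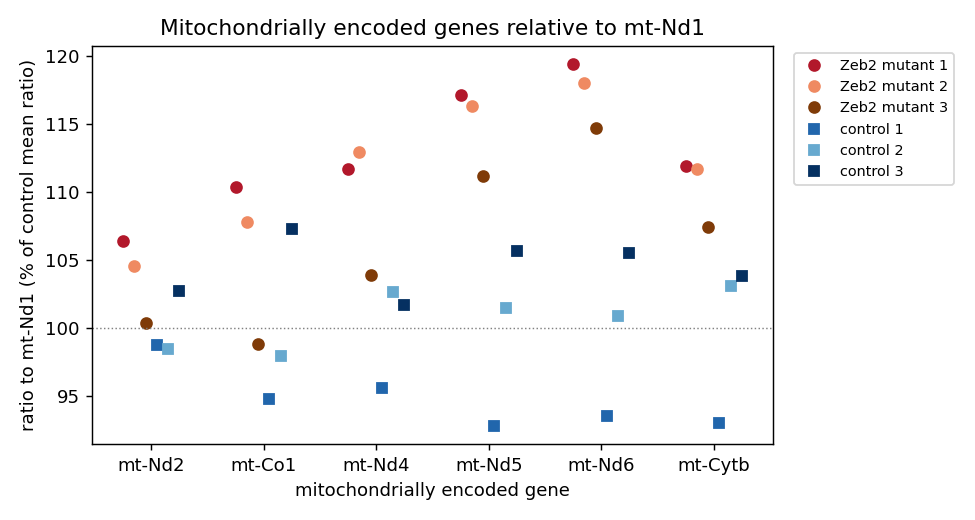
Ratio of each mitochondrially encoded gene to mt-Nd1 in the same library (x axis, gene), as a percent of the mean control ratio (y axis). Points are libraries, with Zeb2 mutants left of controls; the groups do not overlap for mt-Nd4, mt-Nd5, mt-Nd6 and mt-Cytb and overlap for mt-Nd2 and mt-Co1.

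Mitochondrial genes made up more of each library than the nuclear members did. The 7 genes took 2.17%, 2.35% and 1.54% of all normalised counts in the mutants, against 1.75%, 1.92% and 1.97% in the controls, means of 2.02% ± 0.423 and 1.88% ± 0.110 (SD, n = 3 each). The 89 nuclear members together took 0.943%, 0.966% and 0.920% in the mutants, against 0.902%, 0.872% and 0.906% in the controls, means of 0.943% ± 0.0232 and 0.893% ± 0.0184. The mitochondrial shares overlapped and the nuclear shares did not. The nuclear sums themselves overlapped, at 259550, 264060 and 250100 normalised counts in the mutants, against 250400, 240160 and 249930 in the controls. The nuclear shares were therefore separate only after division by the library totals, whose mean was lower in the mutants. The ratio of the mitochondrial to the nuclear sum was 2.30, 2.43 and 1.68 in the mutants, against 1.95, 2.20 and 2.17 in the controls, and per kilobase of exon it was 3.22, 3.42 and 2.42 against 2.81, 3.17 and 3.08. The mean ratio differed by 0.031, less than the spread between mutant libraries (2.14 ± 0.403 in the mutants and 2.11 ± 0.139 in the controls). Poly-A selection was used, and transcripts of the 2 genomes differ in their tails, so the ratio describes these libraries and not the number of molecules.

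**Figure D3:**
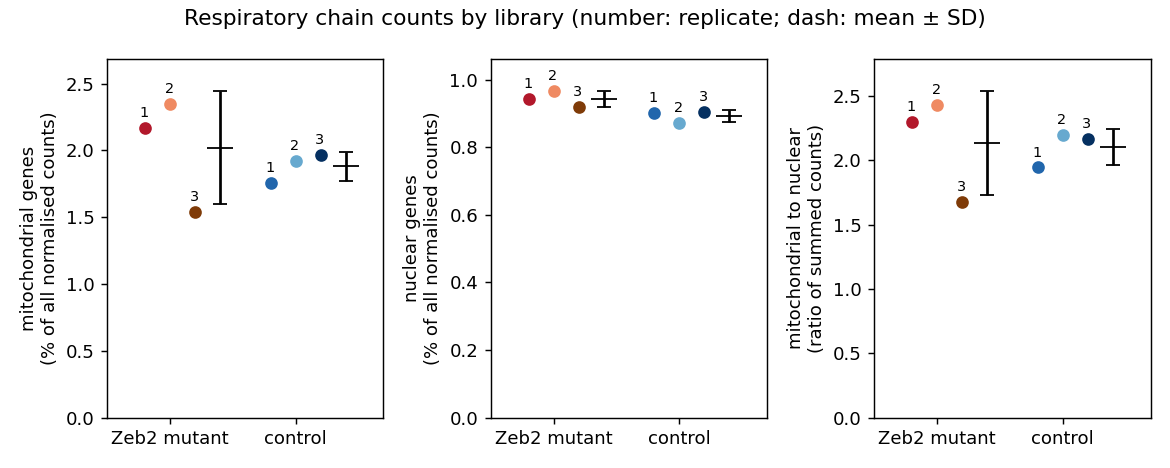
Share of all normalised counts taken by the 7 mitochondrial and the 89 nuclear members, and the ratio of their sums (y axes), for the 3 Zeb2 mutant (left) and 3 control libraries. Numbers are replicates and dashes are means ± SD. Of the quantities shown, only the nuclear share, 0.920% to 0.966% in the mutants and 0.872% to 0.906% in the controls, does not overlap. The nuclear sums, not shown, overlapped.

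No nuclear member was called by limma or edgeR across all genes. limma with Benjamini-Hochberg adjustment called 0 of the 96 members, where it called 1.15% of all genes tested (0.928% higher and 0.218% lower), and edgeR also called 0, where it called 1.12% of all genes. DESeq2 on the recovered reads called 3 members, Cox4i2, Ndufv3 and Cox8a, all higher, where it called 5.51% of the genes it could test and 3.39% in that direction. At an unadjusted limma p under 0.05 there were 9 members, 8 higher and 1 lower, beside 17.3% of all genes in either direction and 9.01% higher. Most members nevertheless had a positive fold change: 84 of the 96, and 78 of the 89 nuclear members, had a log2 fold change above 0, beside 48.0% of all genes. In 17 members, all nuclear, every mutant lay above every control, beside 11.5% of all genes, and in 0 members did every mutant lie below, beside 11.7% of all genes, or 23.2% in either direction.

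The differences were small. The median log2 fold change of the nuclear members was 0.062, against -0.0067 over all genes tested, and the values ran between -0.46 for Ndufs5 and 0.51 for Cox4i2. By library, the median difference of the nuclear members to the control mean was 0.080, 0.10 and 0.025 in the mutants, against 0.015, -0.035 and 0.0098 in the controls. Mutants 1 and 2 therefore carried most of it.

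Gene length moved with it. Divided at the median exon length of the nuclear members, 1718 bases, the 44 shorter nuclear members had a median log2 fold change of 0.080 and the 45 longer ones 0.042. Over all genes tested the same division gave 0.023 for the 2102 shorter and -0.0098 for the 13932 longer genes. The shorter genes of the whole table had library medians of 0.039, 0.080 and -0.013 in the mutants, against 0.0035, -0.0037 and 0.0047 in the controls. The part of length, and of what it stands for, in the difference of the nuclear members was not tested.

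**Figure D4:**
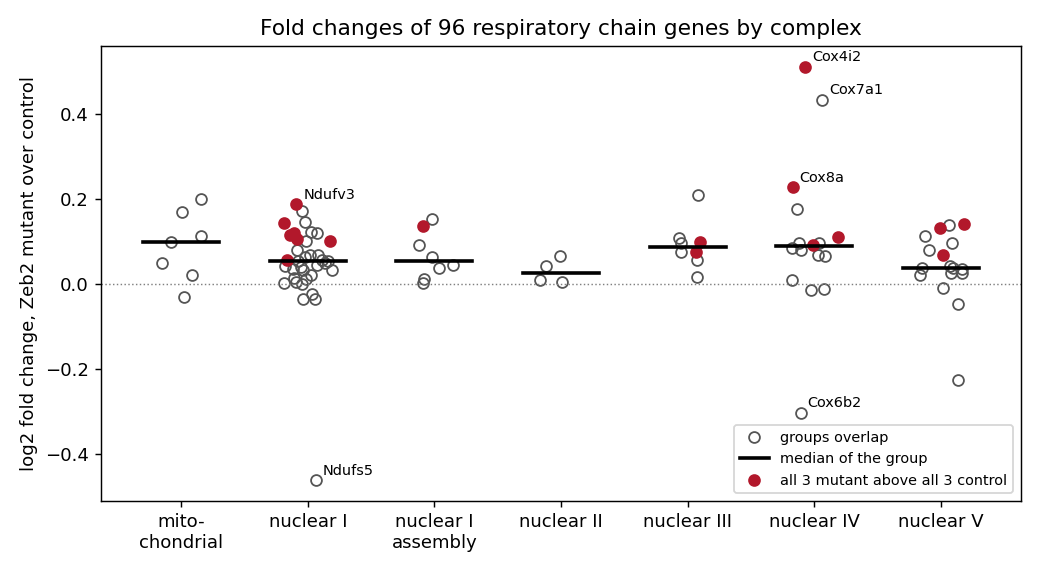
Log2 fold change, Zeb2 mutant over control, of the 96 members (y axis), grouped by genome and complex (x axis). Members named Atp5 were placed in complex V by name alone. Each point is a gene, filled where all 3 mutants lie above all 3 controls, and the dashes are group medians; most points lie above 0, the medians run between 0.026 for complex II and 0.099 for the mitochondrial genes, and Cox4i2 (0.51) and Ndufs5 (-0.46) lie furthest out.

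Complex I, the NADH dehydrogenase, is the largest complex, and 31 of its 36 nuclear members tested had a log2 fold change above 0 (median 0.054), with 7 that did not overlap. Here and for the complexes below, counts above 0 are read beside 48.0% of all genes. Counts without overlap are read beside 11.5% of all genes higher and 11.7% lower. The flavoprotein subunit gene Ndufv3 (chromosome 17, 31520115 to 31531331, plus strand), a member of the NADH-oxidising arm, had 3303.2, 3389.2 and 3354.6 normalised counts in the mutants, against 2987.9, 2785.3 and 3049.7 in the controls. The 3 mutants were within a narrow range above all controls, with means of 3349 ± 43.3 and 2941 ± 138 (SD, n = 3 each), a ratio of 1.14 and a log2 fold change of 0.19 ± 0.048 (SE). This was not called by limma (adjusted p = 0.0976) or edgeR (adjusted p = 0.0857) and was called by DESeq2 (adjusted p = 0.0389), with adjusted p between 0.0389 and 0.268 over all alternatives.

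Smaller differences without overlap were found in accessory subunits of complex I and in a core subunit. Ndufa7, an accessory subunit, had 1932.7, 2149.8 and 1888.1 in the mutants, against 1742.1, 1797.1 and 1856.6 in the controls (log2 fold change 0.14, limma adjusted p = 0.264). Ndufb3, an accessory subunit of the membrane arm, had 1350.4, 1370.0 and 1340.6 in the mutants, against 1292.7, 1228.5 and 1231.2 in the controls (0.11, limma adjusted p = 0.278). Ndufs8, a core iron-sulfur subunit, had 1436.0, 1603.2 and 1527.5 in the mutants, against 1388.6, 1378.5 and 1434.3 in the controls (0.12, limma adjusted p = 0.318). Ndufb9, Ndufa3 and Ndufs4 were the other subunits without overlap.

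Some complex I genes departed from the common pattern. Ndufb8 had 4222.5, 5720.0 and 4085.9 in the mutants, against 4138.0, 4135.5 and 4033.9 in the controls, with mutant 2 alone standing apart (0.17, limma adjusted p = 0.480). Ndufs5, an accessory subunit, had 217.7, 199.3 and 361.6 in the mutants, against 328.0, 330.5 and 379.9 in the controls, with mutants 1 and 2 below all controls and mutant 3 within their range (-0.46 ± 0.20 SE, limma adjusted p = 0.292, 0.0534 to 0.845 over all alternatives). Of its 50-base windows 31.1% also occur in the transcripts of another gene, so its count is uncertain. Ndufb4, at 131.0, 107.4 and 135.1 in the mutants and 119.3, 116.4 and 118.5 in the controls, shares 37.0% of its windows with other genes and overlapped (0.07, limma adjusted p = 0.843). The 8 assembly factors named Ndufaf, which help to build complex I but are not part of it, all had a fold change above 0 (median 0.053), and 1 of them, Ndufaf5, did not overlap.

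Complexes II and III had few differences beyond their spread. The 4 subunits of succinate dehydrogenase, which also works in the citric acid cycle, had log2 fold changes between 0.0051 and 0.067 and all overlapped. The flavoprotein Sdha had 5954.4, 5783.9 and 6058.2 in the mutants, against 5930.1, 5619.9 and 5723.8 in the controls (0.043, limma adjusted p = 0.664), and the membrane anchor Sdhc 3885.4, 4063.6 and 3939.6 against 4085.8, 3835.4 and 3901.0 (0.0083, limma adjusted p = 0.946). In complex III, the cytochrome bc1 complex, all 8 nuclear members named Uqcr had a fold change above 0 (median 0.086), and Uqcrb and Uqcrh did not overlap. Cytochrome c1, Cyc1, also belongs to this complex but lies outside the name patterns. Its fold change was below 0 by less than its standard error (-0.045 ± 0.049 SE, limma adjusted p = 0.687), and its groups overlapped, so its direction is uncertain. The shared direction was counted only over the members taken by name. The core proteins Uqcrc1 (0.015, limma adjusted p = 0.907) and Uqcrc2 (0.056, limma adjusted p = 0.551) overlapped. The small subunit Uqcr11 had 1436.0, 1549.0 and 1289.8 in the mutants, against 1229.9, 1158.2 and 1298.9 in the controls, with mutant 3 within the control range (0.21, limma adjusted p = 0.205); it was singled out after its values were seen.

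Complex IV, cytochrome c oxidase, held the member with the largest positive fold change. Of its 16 nuclear members, Ndufa4 and Ndufa4l2 included, 13 had a log2 fold change above 0 (median 0.089). In 4 of them every mutant lay above every control, beside 11.5% of all genes. Cox4i2 (chromosome 2, 152754173 to 152765037, plus strand), the isoform of subunit 4 known from lung and from responses to low oxygen, had 1386.4, 1624.5 and 1251.3 normalised counts in the mutants, against 965.8, 909.5 and 1104.3 in the controls. Every mutant lay above every control, with means of 1421 ± 189 and 993 ± 100.2 (SD, n = 3 each), a ratio of 1.43 and a log2 fold change of 0.51 ± 0.10 (SE). The adjusted p was 0.0601 with limma, 0.0658 with edgeR and 0.000251 with DESeq2, and between 0.000251 and 0.227 over all alternatives. The general isoform Cox4i1 had 6743.7, 7149.1 and 6609.7 in the mutants, against 6741.5, 6331.2 and 6489.6 in the controls, overlapping (0.07, limma adjusted p = 0.523). Per kilobase of exon, Cox4i2 averaged 1803 in the mutants and 1260 in the controls, and Cox4i1 4409 in the mutants and 4207 in the controls, so the general isoform was the more abundant in both groups.

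Cox4i2 and Ndufa4l2, a paralog of Ndufa4 induced by low oxygen, are both known from pericytes. Ndufa4l2 had 6907.5, 5905.8 and 5043.6 in the mutants, against 4546.9, 4699.9 and 6684.2 in the controls, with mutant 1 and control 3 high (0.18, limma adjusted p = 0.615). Ndufa4 itself, a complex IV subunit despite its name, had 3639.2, 3576.0 and 3220.6 in the mutants, against 3244.6, 3068.6 and 3439.0 in the controls (0.10, limma adjusted p = 0.475). Markers of pericytes and endothelium, 8 of 8 tested with 0 called by limma and 0 at an unadjusted p under 0.05, summed to 19357, 17858 and 20108 in the mutants, against 18462, 20845 and 21184 in the controls. Most of each sum was the receptor gene Kdr, at 18330, 17338 and 19207 in the mutants and 17838, 19558 and 20105 in the controls. The endothelial genes Pecam1, Cdh5 and Tie1 were far lower and varied more. Pecam1 had 151.1, 50.3 and 108.7 in the mutants, against 60.7, 136.4 and 123.5 in the controls. The sums therefore follow Kdr and do not describe the other markers. The pericyte gene Rgs5 had 358.2, 178.0 and 383.9 in the mutants, against 269.4, 560.2 and 451.0 in the controls, and Pdgfrb had 216.6, 168.3 and 175.7 in the mutants, against 175.7, 284.3 and 243.7 in the controls. All 8 markers overlapped between the groups, and the part of pericytes in the Cox4i2 values was not tested.

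Cox8a (chromosome 19, 7215153 to 7217616, minus strand), the general isoform of a small membrane subunit, had 5523.3, 5581.7 and 5077.1 in the mutants, against 4555.4, 4291.8 and 4979.1 in the controls. The means were 5394 ± 276 and 4609 ± 347 (SD, n = 3 each), a ratio of 1.17 and a log2 fold change of 0.23 ± 0.064 (SE), with mutant 3 only just above control 3. The adjusted p was 0.119 with limma, 0.114 with edgeR and 0.0270 with DESeq2, and between 0.0270 and 0.462 over all alternatives. Cox6b1, which faces the intermembrane space, had 3585.3, 3594.4 and 3414.5 in the mutants, against 3380.9, 3211.2 and 3223.2 in the controls (0.11, limma adjusted p = 0.257). Its testis isoform Cox6b2 had 168.0, 219.6 and 189.9 in the mutants, against 218.3, 262.3 and 231.0 in the controls, with mutant 2 just above control 1 (-0.30, limma adjusted p = 0.280), and was the 1 member lower at an unadjusted p under 0.05.

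**Figure D5:**
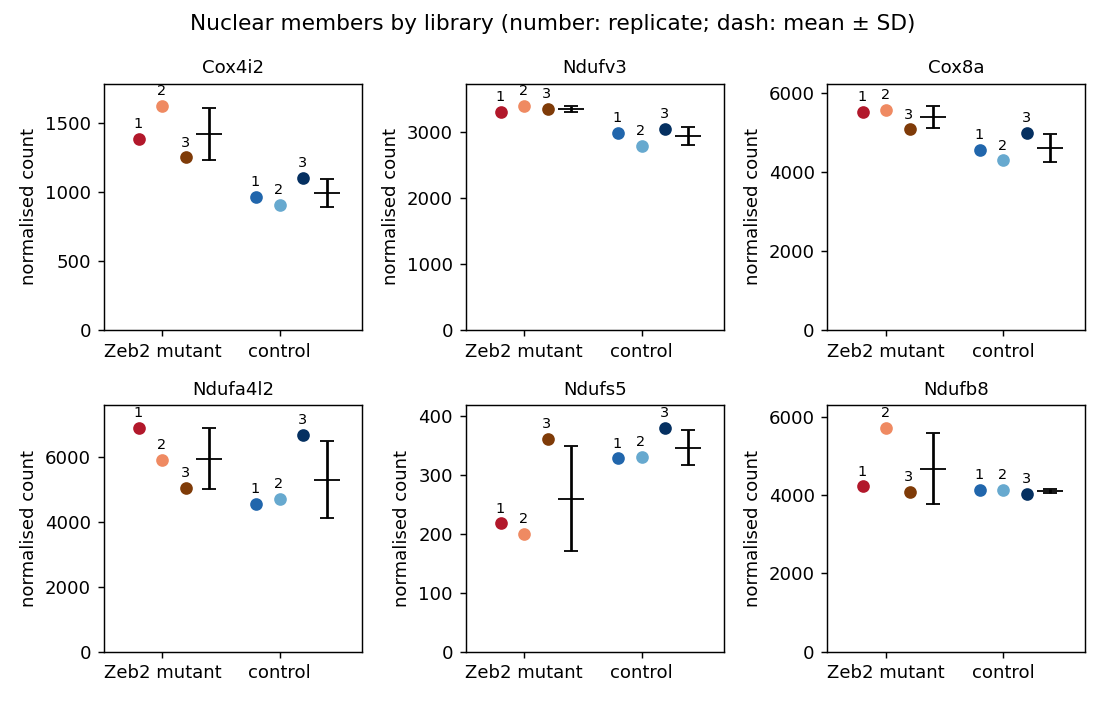
Normalised counts (y axes) of nuclear members in the 3 Zeb2 mutant (left) and 3 control libraries. Numbers are replicates and dashes are means ± SD; the groups do not overlap for Cox4i2, Ndufv3 and Cox8a and overlap for Ndufa4l2, Ndufs5 and Ndufb8, where mutant 2 alone is high.

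The isoforms of muscle and heart were near the limit of detection. Cox7a1, just inside the limit, had 15.9, 14.5 and 16.3 normalised counts in the mutants, against 7.5, 8.4 and 22.0 in the controls (log2 fold change 0.43, limma adjusted p = 0.636), while its general counterpart Cox7a2 had a fold change of 0.06 (limma adjusted p = 0.562). Just outside the limit were Cox6a2, at 2.1, 1.0 and 2.0 in the mutants and 0, 8.4 and 1.7 in the controls, Cox8b, at 2.1, 5.8 and 1.0 in the mutants and 0, 1.0 and 0 in the controls, and the pseudogene Uqcrh-ps1, at 5.3, 9.7 and 1.0 in the mutants and 2.1, 4.2 and 1.7 in the controls. These 3 were not tested. Cox6a1, the general isoform, had 5729.3, 6110.9 and 5179.7 in the mutants, against 5391.3, 5228.6 and 5454.7 in the controls (0.08, limma adjusted p = 0.562). Its promoter carries the NRF1 and GABPA letters printed above. It was printed for its NRF1 letters, so it is no measure of how Cox8a and Ndufv3 differ from other members. Cox7b (0.10, limma adjusted p = 0.441) overlapped, and Cox7a2l, which takes part in joining complexes III and IV, did not (1964.4, 1960.2 and 1899.2 in the mutants, against 1764.4, 1838.0 and 1860.0 in the controls; 0.09, limma adjusted p = 0.350).

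Complex V held the nuclear members with the highest normalised counts, not adjusted for length, and its median fold change was small. Of 17 members named Atp5, placed in this group by name alone, 14 had a log2 fold change above 0 (median 0.038). In 3 of them every mutant lay above every control, beside 11.5% of all genes. Atp5b, the catalytic β subunit, had 29364, 29649 and 29555 in the mutants, against 29661, 27788 and 28896 in the controls (0.037, limma adjusted p = 0.761). Atp5a1, the α subunit, had 23195, 23156 and 23579 in the mutants, against 23854, 22271 and 22869 in the controls (0.020, limma adjusted p = 0.877). Both overlapped. Atp5e, the ε subunit of the central stalk, had 1700.2, 1710.6 and 1587.4 in the mutants, against 1482.3, 1478.1 and 1572.3 in the controls, without overlap (0.14, limma adjusted p = 0.222), as did Atp5k and Atp5c1. The 3 genes of the same membrane-ring protein differed in level, at 2285 per kilobase in the mutants and 2164 in the controls for Atp5g3, 886 and 871 for Atp5g2 and 298 and 300.1 for Atp5g1. Their log2 fold changes were 0.08, 0.03 and -0.01 (limma adjusted p = 0.502, 0.844 and 0.946). Scaling to library totals put the median of all genes at 0.0079, against -0.0067 as deposited, and the sign of Atp5g1 flipped with it. Atp5l, at 39.1, 58.1 and 77.2 in the mutants and 63.9, 69.2 and 64.3 in the controls (-0.23, limma adjusted p = 0.687), shares 84.9% of its windows with other genes, and Atp5o and Atp5h share 50.3% and 47.9%, so these counts are uncertain. Of the 96 members, 46 share none.

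Per kilobase of exon, mitochondrial genes exceeded the nuclear ones by a wide margin. mt-Nd1 averaged 106243 normalised counts per kilobase in the mutants and 107269 in the controls, mt-Co1 104510 and 99227, and mt-Nd4, the lowest of the 7, 24287 and 22270. The highest nuclear members were Cox8a, at 8714 in the mutants and 7446 in the controls, and Cox6a1, at 8082 and 7633, followed by Atp5a1, at 7435 and 7336, and Atp5b, at 6968 and 6793. The 7 mitochondrial genes were all among the 84 most abundant genes of each library by count.

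Other genes of mitochondrial respiration were read from lists, none of which had a gene called by limma, edgeR or DESeq2. At an unadjusted limma p under 0.05 there were 3 genes among the electron carriers, 2 among the other assembly factors, 3 among the genes of mitochondrial DNA and RNA, and 1 each among the nuclear regulators, the citric acid cycle genes and the genes of import and exchange, beside 17.3% of all genes. Their counts without overlap are read beside 11.5% of all genes higher and 11.7% lower. Among 7 electron carriers, 5 had a log2 fold change above 0 (median 0.093) and 3 did not overlap, all higher: Etfa, Etfb and Etfdh, which pass electrons from fatty acid and amino acid oxidation to the chain. Etfa had 1328.2, 1280.0 and 1346.7 in the mutants, against 1229.9, 1179.2 and 1197.4 in the controls (limma adjusted p = 0.222). Etfdh had 1535.4, 1473.5 and 1521.4 in the mutants, against 1386.4, 1461.4 and 1400.5 in the controls (0.09, limma adjusted p = 0.372), and cytochrome c1, Cyc1, had a fold change of -0.045 (limma adjusted p = 0.687). Of 36 assembly factors outside the name patterns, 18 were above 0 (median 0.0090), 1 lay higher and 4 lower without overlap, with Atpif1, the inhibitor of ATP synthase, at 0.035 (limma adjusted p = 0.794) and the membrane insertase Oxa1l at -0.024 (limma adjusted p = 0.815). Of 17 genes of the citric acid cycle and pyruvate dehydrogenase, 12 were above 0 (median 0.012), 1 lay higher without overlap, with Cs at -0.02 (limma adjusted p = 0.865). Of 12 genes of mitochondrial import and exchange, 8 were above 0 (median 0.025), 3 lay higher and 1 lower without overlap, and the ATP carrier Slc25a4 had 12095, 11977 and 12143 in the mutants, against 11423, 10880 and 11399 in the controls (0.10, limma adjusted p = 0.264), with the outer-membrane channel Vdac1 at 0.11 (limma adjusted p = 0.388).

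Genes that copy and process mitochondrial DNA and RNA were not higher as a list: 9 of 22 were above 0 (median -0.027), with 4 higher and 5 lower without overlap, beside 11.5% and 11.7% of all genes. The DNA polymerase Polg had 2433.5, 2593.0 and 2530.9 in the mutants, against 2709.0, 2748.6 and 2674.0 in the controls (log2 fold change -0.11, limma adjusted p = 0.268). The helicase Twnk, named after its values were seen, had 907.7, 850.5 and 856.2 in the mutants, against 965.8, 985.1 and 1005.3 in the controls (-0.18, limma adjusted p = 0.153), and the mitochondrial poly-A polymerase Mtpap, also named afterwards, 1037.7, 1006.2 and 1054.2 against 1124.5, 1144.5 and 1174.5 (-0.15, limma adjusted p = 0.177). In all 3 genes every mutant lay below every control, mutant 3 included, so they did not follow the order of the mitochondrial genes. The 4 genes of the list that lay higher without overlap were Tfb2m, Mterf4, Trmt10c and Hsd17b10, so the list had no common direction. Lrpprc, which stabilises mitochondrial messenger RNA, had a fold change of 0.057 (limma adjusted p = 0.663). Of 12 nuclear regulators, 5 were above 0 (median -0.035), 2 lay higher and 1 lower without overlap, with Yy1 at -0.04 (limma adjusted p = 0.777) and the corepressor Nrip1 at -0.06 (limma adjusted p = 0.659). The coactivator Ppargc1a, named after its values were seen, had 365.6, 374.4 and 432.7 in the mutants, against 316.3, 299.0 and 321.6 in the controls, without overlap (0.32, limma adjusted p = 0.130). Nrf1, also named afterwards, had 2687.1, 2548.5 and 2572.6 in the mutants, against 2911.3, 2702.4 and 2729.9 in the controls, without overlap in the other direction (-0.10, limma adjusted p = 0.360).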

How the data were processed

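Poly-A RNA of postnatal day 2 mouse retina, extracted with RNeasy kits per the labels' protocols, was sequenced from 3 Zeb2 mutant and 3 control samples, grouped by title. Per the submitters' processing notes, the tools were STAR 2.4.2a, cutadapt, HTSeq and DESeq2, and the build was GRCm38. The deposited signal is a normalised count per gene and library, per the file headers; 0 other value columns were present. All values lay within 0.06 of whole multiples of the worth of 1 read, so whole reads could be recovered.

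Genes were tested with limma-trend (limma 3.58.1 in R 4.3.3), 2-sided, on log2 values after adding 1 to the normalised count, for the 16064 genes whose mean reached 10; the Benjamini-Hochberg threshold was 0.05. This scale understates changes of low genes. The test was checked on simulated data. edgeR 4.0.16 and DESeq2 1.42.0 were run on recovered reads. Coordinates and exon lengths are from GENCODE M21 (GRCm38), and promoters from RefSeq.

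The members and lists were chosen with earlier results of these data known. Named were every mitochondrial member, nuclear members called or without overlap and smallest p (at most 8 in each direction), the 2 most abundant per complex, paralog sets, members near the limit, and 2 genes per list, a few of which are not reported here. The alternatives were other pseudocounts, filters, scalings, a replicate block, edgeR, DESeq2 and leaving out libraries; leaving out mutants 1 and 2 together was added after seeing the data.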

Additional observations from a re-analysis of the deposited data

How the results depend on the processing

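The count of genes called by limma, 184, was 26 without the filter on low values, 868 with DESeq2 and between 27 and 600 with 1 library left out; 0 members were called under these limma settings, and DESeq2 called 3, with log2 fold changes of 0.52 for Cox4i2, 0.19 for Ndufv3 and 0.23 for Cox8a. In the replicate block 248 genes and 0 members were called; same-numbered libraries correlated at 0.016, 0.15 and -0.063, mutant 3 correlated best with control 1, and the shared numbers were not taken as pairs. Leaving out mutants 1 and 2, added after seeing the data, leaves mutant 3 as the 1 mutant library, assumed to vary like the controls, and so restates its values rather than testing them; it gave medians of 0.025 (nuclear) and -0.30 (mitochondrial), 165 genes called, and a reversed sign for mt-Nd2 (-0.35), mt-Co1 (-0.37), mt-Nd4 (-0.30), mt-Nd5 (-0.20), mt-Nd6 (-0.15), mt-Cytb (-0.25), Ndufb8 (-0.0057), Uqcrc1 (-0.013), Ndufa4l2 (-0.052), Cox6a1 (-0.049), Ndufa4 (-0.012), Atpif1 (-0.037), Nrip1 (0.0087) and Cs (0.013). Atp5g1 was 0.0040 when scaled to all counts and 0.0061 to those without mitochondrial genes. With 1 library left out the log2 fold change ran between -0.14 and 0.13 for mt-Nd1, -0.095 and 0.21 for mt-Nd2, -0.078 and 0.26 for mt-Co1, -0.034 and 0.30 for mt-Nd4, -0.0075 and 0.29 for mt-Cytb, -0.011 and 0.035 for Sdhc, -0.028 and 0.044 for Uqcrc1, -0.0029 and 0.047 for Atp5a1, -0.056 and 0.017 for Atp5g1, -0.0054 and 0.071 for Atpif1, -0.10 and 0.019 for Yy1, and -0.041 and 0.0042 for Cs. Over the single omissions the nuclear median ran between 0.043 and 0.086 and the mitochondrial median between -0.034 and 0.29. None of these genes passed the limma test, and the cause of each change of sign was not tested. Of the other values, 776 kept their direction and side of the threshold. With 3 libraries a group, small differences of single genes are limited by the spread between libraries.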
